A study of Mus musculus with 6 samples.

Results

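The 10 genes described here carry carnitine through its synthesis, its transport across the plasma and inner mitochondrial membranes, and its use as an acyl carrier. They were taken as a list of symbols from the whole expression tables, and all 10 were found among 55487 annotated genes. The study compared livers of mice named SCADD with livers of mice named WT, 3 animals each, all male, 8 weeks old and fed standard chow. SCADD animals were of the inbred substrain BALB_cBYJ, which lacks working short-chain acyl-CoA dehydrogenase, and WT animals were of the related substrain BALB_cJ. The genotype and the substrain coincided in every animal, so the enzyme defect and other substrain variants cannot be told apart. Expression was measured by sequencing poly(A) RNA from 20 mg pieces of frozen liver.

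Carnitine is made from trimethyllysine that is released when proteins are broken down, and the liver is one of the tissues that can complete the synthesis. Long-chain fatty acids reach the mitochondrial matrix only as carnitine esters: an outer-membrane carnitine palmitoyltransferase forms the ester, a carrier exchanges it for free carnitine across the inner membrane, and an inner-membrane palmitoyltransferase returns the acyl group to coenzyme A. Short acyl groups that collect in the matrix can leave by the reverse route, after carnitine acetyltransferase has moved them to carnitine. In short-chain acyl-CoA dehydrogenase deficiency, butyrylcarnitine is the known marker of this outflow.

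Reads counted in genes by STAR totalled 16948986 to 23912744 in the SCADD libraries and 23991104 to 27148756 in the WT libraries. The share of unmapped reads was 25.1% to 36.6% in SCADD and 13.6% to 16.4% in WT, and its part in the results below was not tested. The hepatocyte markers Alb, Apoa1, Ttr, Serpina1c, Cyp2e1 and Ass1 summed to 91926 to 133375 CPM (counts of a gene relative to the library's total, scaled between libraries by the TMM method) in SCADD and 101166 to 150835 CPM in WT. Alb gave the largest part of this sum, at 103941, 117365 and 79586 CPM in SCADD and 86355, 135287 and 89716 CPM in WT. Ass1, Serpina1c and Apoa1 had log2 fold changes of -0.72, -0.43 and -0.32, and Cyp2e1 and Ttr had 0.39 and 0.16. Ass1 and Serpina1c were lower and Cyp2e1 higher in SCADD without overlap, and 0 hepatocyte markers were called. The hepatocyte sum thus describes mainly Alb. Endothelial markers summed to 90.8 to 151 CPM in SCADD and 158 to 166 CPM in WT, and biliary markers to 28.8 to 41.1 CPM in SCADD and 44.7 to 52.1 CPM in WT, so both sums were lower in SCADD without overlap, and their part in the results below was not tested. Clec4g gave the largest part of the endothelial sum, at 53.8, 65.6 and 104 CPM in SCADD and 117, 112 and 115 CPM in WT. Its log2 fold change was -0.62, and those of Lyve1, Pecam1 and Kdr were -1.40, -0.39 and -0.07. Stab2 went the other way, at 0.28, so the sum does not describe each endothelial marker. Spp1 gave the largest part of the biliary sum, at 31.5, 27.8 and 39.5 CPM in SCADD and 44.7, 48.1 and 42.0 CPM in WT. Its log2 fold change was -0.45 (edgeR adjusted p = 0.0987). Epcam and Sox9 had -1.13 and -0.76, and Krt19 and Krt7 were too low to test. Sox9 and Krt7 overlapped between groups, so the biliary sum describes mainly Spp1. Among 48 markers of 10 cell types, 1 was called higher in SCADD, the erythroid gene Alas2, and 1 lower, the endothelial gene Lyve1. Of all tested genes, 4.22% were called higher and 2.8% lower. Not every marker had enough counts to be tested. Those tested were 0 of 6 for striated muscle, 1 of 4 lymphoid, 1 of 5 fat, 1 of 3 kidney, 3 of 5 biliary and 3 of 4 erythroid. In bulk tissue, fewer cells of a type and less RNA per cell cannot be told apart.

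Of the 10 genes, 9 passed the filter on low counts and were tested with STAR counts. Slc22a5 and Slc25a20, the transporters at the plasma membrane and the inner mitochondrial membrane, rose in SCADD livers (edgeR quasi-likelihood test, Benjamini-Hochberg adjusted p under 0.05 over all tested genes), and 0 fell, also by DESeq2 and at an unadjusted p under 0.05. Across all 13498 tested genes, 4.22% were called higher and 2.8% lower in SCADD. With upper-quartile scaling, 470 genes were higher and 482 lower, against 569 and 378 with TMM. The median log2 fold change was 0.35 over the 9 carnitine genes and 0.00 over all tested genes. The remaining gene, Cpt1b, had too few STAR counts to pass the filter, and it rose 9.44-fold with the RSEM estimates. With RSEM counts, 3 of the 10 genes rose and 0 fell (0 also by DESeq2 and at an unadjusted p under 0.05), beside 4.18% of 12953 tested genes called higher and 2.73% called lower.

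**Figure D1:**
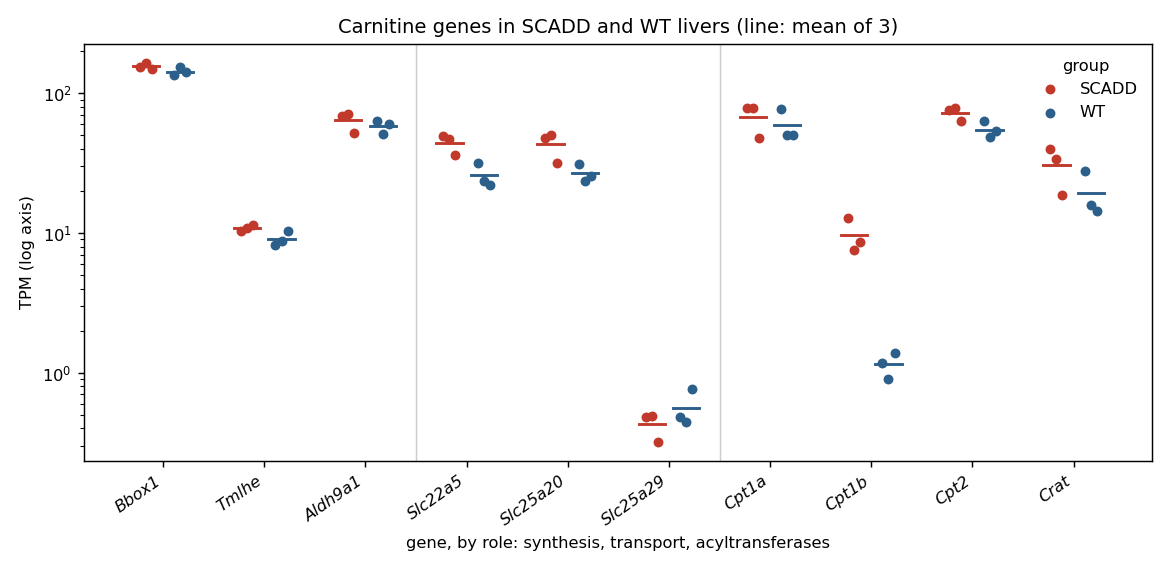
Level of each of the 10 carnitine genes in TPM (transcript abundance per length and library, on a log axis), 1 point per library and a line at the mean of each group, with SCADD on the left of each pair. The SCADD points lie above the WT points without overlap for Tmlhe, Slc22a5, Slc25a20 and Cpt1b.

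Levels between genes were compared in TPM, which accounts for transcript length. Bbox1 stood highest in both groups, at 156.5 ± 7.69 TPM in SCADD and 143 ± 10.2 TPM in WT (SD, n = 3 each). Cpt1a, Cpt2 and Aldh9a1 followed, with means of 64.0 to 72.6 TPM in SCADD and 55.1 to 59.2 TPM in WT, and within each group their ranges overlapped. Slc22a5, Slc25a20 and Crat came next, at 30.7 to 44.2 TPM in SCADD and 19.3 to 26.9 TPM in WT, again with overlapping ranges between neighbours in the order. Tmlhe averaged 10.9 ± 0.481 TPM in SCADD and 9.08 ± 1.10 TPM in WT. In SCADD livers the range of Cpt1b overlapped that of Tmlhe, whereas in WT livers it lay below it. Slc25a29 was lowest, at 0.430 ± 0.0954 TPM in SCADD and 0.560 ± 0.174 TPM in WT. The 10 genes together summed to 501 ± 69.5 TPM in SCADD and 399 ± 35.3 TPM in WT.

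Carnitine synthesis genes did not pass the test. Bbox1 lies on chromosome 2 (110262697 to 110314560), Aldh9a1 on chromosome 1 (167349991 to 167368532, GRCm38) and Tmlhe on a scaffold outside the assembled chromosomes. Tmlhe encodes the mitochondrial trimethyllysine dioxygenase that opens the pathway. It measured 24.4, 22.7 and 33.6 CPM in SCADD replicates 1, 2 and 3, and 17.8, 20.9 and 24.7 CPM in WT replicates 1, 2 and 3. The groups overlapped through WT replicate 3, and the log2 fold change was 0.35 (SE 0.18, edgeR adjusted p = 0.28). Aldh9a1 encodes the aldehyde dehydrogenase that yields gamma-butyrobetaine. It measured 188, 183 and 181 CPM in SCADD and 165, 141 and 177 CPM in WT. The 3 SCADD libraries lay close together and just above WT replicate 3, at 0.19 on the log2 scale (SE 0.14; edgeR, adjusted p = 0.467). Bbox1 encodes the gamma-butyrobetaine dioxygenase that makes carnitine. It measured 531, 503 and 694 CPM in SCADD and 415, 484 and 487 CPM in WT. SCADD replicate 3 stood apart upward, and the log2 fold change was 0.32 (SE 0.17, edgeR adjusted p = 0.314). Summed in TPM, the 3 synthesis genes reached 234, 247 and 213 in SCADD and 206, 214 and 212 in WT, so SCADD replicate 3 fell inside the WT range on that scale.

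Slc22a5 (ENSMUSG00000018900, chromosome 11, 53864542 to 53891660, GRCm38) encodes the sodium-dependent carnitine transporter of the plasma membrane, whose loss causes systemic carnitine deficiency in humans. It measured 124, 114 and 120 CPM in SCADD replicates 1, 2 and 3, and 77.5, 63.3 and 60.8 CPM in WT replicates 1, 2 and 3. Every SCADD library lay above every WT library. This was a 1.78-fold difference, with 0.83 on the log2 scale (SE 0.14; edgeR, adjusted p = 0.0064). Its level was 44.2 ± 6.94 TPM in SCADD and 25.9 ± 5.23 TPM in WT (SD, n = 3 each). RSEM gave it 100.4% to 103.8% of the STAR count in each library.

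Slc25a20 (ENSMUSG00000032602, chromosome 9, 108662088 to 108684641, GRCm38) encodes the carnitine-acylcarnitine carrier of the inner mitochondrial membrane. It measured 98.4, 96.8 and 87.7 CPM in SCADD replicates 1, 2 and 3, and 60.1, 48.9 and 56.1 CPM in WT replicates 1, 2 and 3. The groups did not overlap. The difference was 1.71-fold, with 0.78 on the log2 scale (SE 0.13; edgeR, adjusted p = 0.00681). RSEM gave it 69.2% to 72.8% of the STAR count in each library. Both transporters kept an adjusted p under 0.05 with STAR counts when any 1 library was left out, at 0.00326 to 0.0466 for Slc22a5 and 0.00214 to 0.0483 for Slc25a20. With RSEM counts the call of Slc25a20 ended without SCADD replicate 1 (0.0515), and those of Slc22a5 and Slc25a20 ended without WT replicate 2 (0.0581 and 0.0614) or WT replicate 3 (0.054 and 0.0513). Neither difference passed when tested against a change of 1.5-fold (adjusted p = 0.372 and 0.555), nor with limma on log2(TPM + 1) (adjusted p = 0.0908 and 0.166). The major urinary protein genes took 7.37% to 14.8% of TPM in SCADD and 3.23% to 4.16% in WT, and their part in the TPM result was not tested.

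The start regions of the 2 transporters that rose are shown with that of Aldh9a1, since they were searched for the direct repeat to which PPAR-alpha binds with RXR (DR1, AGGTCANAGGTCA, searched on both strands in windows from 250 bases before to 50 bases after the annotated start). Each line gives the 250 bases before the start, read 5′ to 3′ on the strand of the gene, from RefSeq on GRCm38.p6. Capitals mark a stretch that matches the repeat with at most 2 mismatches outside the free base. The windows are chr11:53891704-53891953 on the minus strand for Slc22a5, chr9:108661886-108662135 on the plus strand for Slc25a20 and chr1:167349741-167349990 on the plus strand for Aldh9a1.
Slc22a5: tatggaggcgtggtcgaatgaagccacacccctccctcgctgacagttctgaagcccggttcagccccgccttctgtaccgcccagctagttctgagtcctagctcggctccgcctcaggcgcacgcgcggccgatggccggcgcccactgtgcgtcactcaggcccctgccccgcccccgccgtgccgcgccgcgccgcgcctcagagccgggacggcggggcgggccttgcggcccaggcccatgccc
Slc25a20: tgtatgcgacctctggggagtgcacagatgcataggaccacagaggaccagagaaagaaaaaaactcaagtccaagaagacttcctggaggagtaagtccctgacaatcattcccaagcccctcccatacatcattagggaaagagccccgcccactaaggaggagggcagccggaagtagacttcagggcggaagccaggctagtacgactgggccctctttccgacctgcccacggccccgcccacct
Aldh9a1: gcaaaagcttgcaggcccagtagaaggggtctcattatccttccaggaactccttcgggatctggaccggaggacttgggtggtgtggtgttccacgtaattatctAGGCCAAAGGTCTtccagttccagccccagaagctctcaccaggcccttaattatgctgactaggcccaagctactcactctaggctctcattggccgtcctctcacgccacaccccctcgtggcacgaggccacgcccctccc
Slc25a20 had its closest stretch 7 bases into the transcribed part, AGGTGAAAGGTCG, and Aldh9a1 had AGGCCAAAGGTCT at 144 bases before the start, each with 2 mismatches. In Slc22a5 the closest stretch had 4 mismatches. Of 7 carnitine genes with a window in the table, Slc25a20 and Aldh9a1 held such a stretch, as did 3.86% of all 32851 windows, while 0.0396% held the exact repeat. A match is a description of letters and no evidence of binding, and a gene without one may hold it outside the window. The 250 bases of Slc22a5 were 73.6% G or C, against 56.8% for Slc25a20.

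Slc25a29, a mitochondrial carrier of basic amino acids that was first described as a carnitine carrier, was barely expressed. It lies on chromosome 12 (108825873 to 108835883, GRCm38). It had 20, 18 and 11 counts in SCADD and 25, 18 and 34 counts in WT. Its log2 fold change was -0.33 (SE 0.31; edgeR, adjusted p = 0.586), and -0.11 without WT replicate 3.

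**Figure D2:**
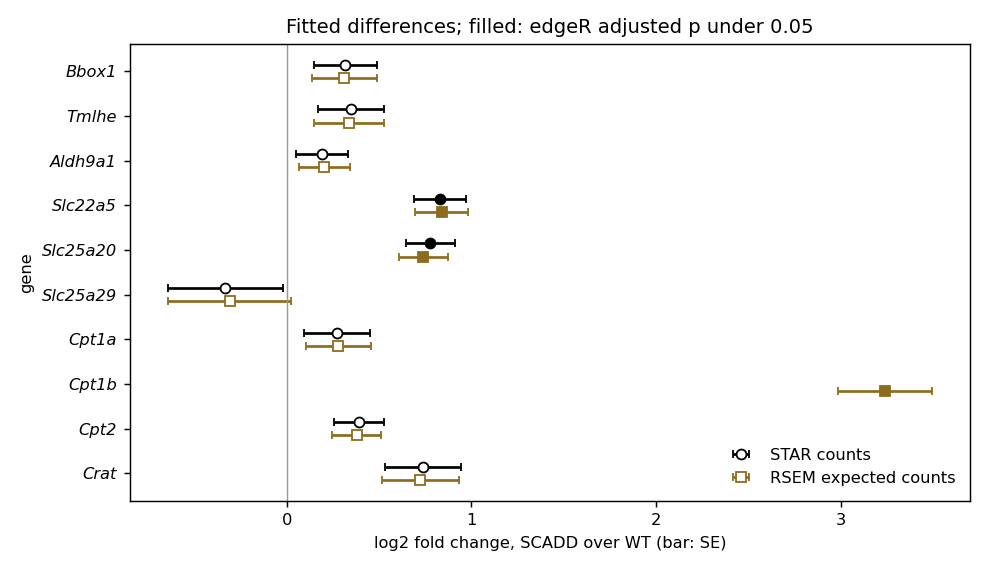
Log2 fold change of each carnitine gene, SCADD over WT, with its SE as a bar, from STAR counts (circles) and RSEM expected counts (squares). Filled symbols have an edgeR adjusted p under 0.05: Slc22a5 and Slc25a20 with both kinds of count, and Cpt1b with RSEM counts. Cpt1b has no circle because its STAR counts did not pass the filter on low counts.

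The acyltransferase genes besides Cpt1b lie on chromosome 19 (Cpt1a, 3322334 to 3385733), chromosome 4 (Cpt2, 107903981 to 107923610) and chromosome 2 (Crat, 30400471 to 30415813), on GRCm38. Among them, the liver form of the outer-membrane enzyme did not pass the test. Cpt1a, which malonyl-CoA inhibits and which sets the entry of long-chain fatty acids, measured 323, 310 and 266 CPM in SCADD replicates 1, 2 and 3, and 310, 212 and 224 CPM in WT replicates 1, 2 and 3. WT replicate 1 stood with the SCADD libraries. The log2 fold change of Cpt1a was 0.27 (SE 0.18; edgeR, adjusted p = 0.413), with 0.45 (adjusted p = 0.194) when WT replicate 1 was left out. Cpt2, the inner-membrane enzyme, measured 159, 150 and 167 CPM in SCADD and 130, 109 and 123 CPM in WT. Its groups did not overlap, but at 0.39 on the log2 scale (SE 0.14) its adjusted p by edgeR was 0.114.

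Crat, the carnitine acetyltransferase that acts on short acyl groups, measured 107, 85.3 and 76.3 CPM in SCADD replicates 1, 2 and 3, and 71.7, 43.8 and 45.5 CPM in WT replicates 1, 2 and 3. All SCADD libraries lay above all WT libraries, with WT replicate 1 close to SCADD replicate 3. On the log2 scale its difference, 0.74 (SE 0.21), was about as large as that of Slc25a20, and its adjusted p by edgeR was 0.0581. DESeq2, which called 5.03% of its tested genes higher, called it (adjusted p = 0.0128), as did edgeR without WT replicate 1 (log2 fold change 0.99, adjusted p = 0.0145). The fat cell gene Adipoq had 15, 10 and 5 counts in SCADD and 129, 7 and 8 counts in WT replicates 1, 2 and 3, and the part of this high WT replicate 1 value in the levels of Crat and Cpt1a was not tested.

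Groups did not overlap, with SCADD higher, for Bbox1, Aldh9a1, Slc22a5, Slc25a20, Cpt2 and Crat in CPM, 6 of the 9 tested genes, beside 14.9% of all tested genes. In TPM the genes without overlap were instead Tmlhe, Slc22a5, Slc25a20 and Cpt1b, 4 of 10, beside 6.32% of the genes tested with RSEM counts. Slc22a5 and Slc25a20 were the genes that did so on both scales among those measured on both.

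Cpt1b, the form of the outer-membrane palmitoyltransferase known from muscle and brown fat, was higher in SCADD livers. It lies on chromosome 15 (ENSMUSG00000078937, 89416405 to 89425863, minus strand, GRCm38). RSEM assigned it 737, 329 and 395 expected counts in SCADD replicates 1, 2 and 3, and 77, 47 and 68 in WT replicates 1, 2 and 3. The lowest SCADD library lay above the highest WT library by a wide margin. In TPM it measured 12.8, 7.51 and 8.65 in SCADD and 1.18, 0.90 and 1.39 in WT. From RSEM counts its log2 fold change was 3.24 (SE 0.26; edgeR, adjusted p = 8.46e-05), a 9.44-fold difference. It held against a change of 1.5-fold (adjusted p = 0.000163) and without any 1 library (log2 fold change 2.99 to 3.46, adjusted p = 1.67e-06 to 0.00235).

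The choice between these counting methods decided whether Cpt1b was seen at all. STAR counted 11 reads for Cpt1b over the 3 SCADD libraries and 2 over the 3 WT libraries, where RSEM assigned 1461 and 192. In GENCODE M21 a single read-through transcript, Gm44502 (89416405 to 89429696), spans Cpt1b and its neighbour Chkb on the same strand, and STAR counts no read that lies in 2 genes. STAR gave Gm44502 itself 0 reads in each library. RSEM gave it 6.87 expected counts in SCADD replicate 3 and 0 in the other 5 libraries. With STAR counts and no filter on low counts, Cpt1b had a log2 fold change of 2.51 and an adjusted p of 0.182 by edgeR, and DESeq2 gave it no adjusted p. The RSEM value of Cpt1b rests on how the RSEM model divides reads between Cpt1b and the read-through transcript that overlaps it.

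**Figure D3:**
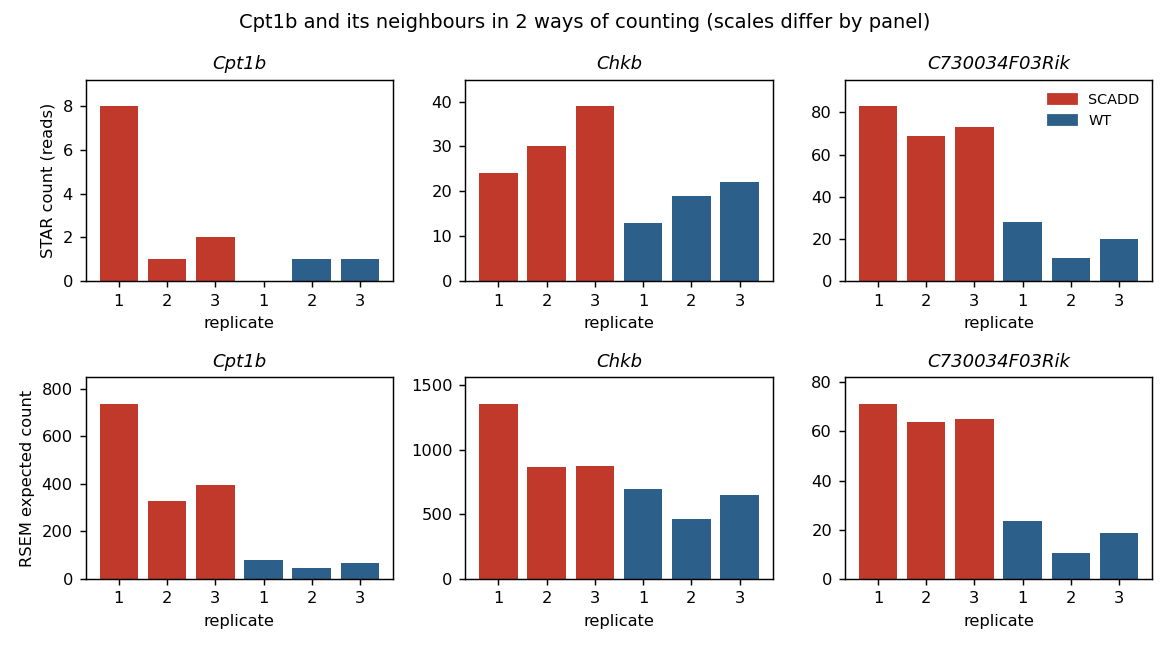
Counts per library for Cpt1b, Chkb and C730034F03Rik, with STAR counts above and RSEM expected counts below, on a linear scale of its own in each panel. STAR counts of Cpt1b do not exceed 8 reads, while the RSEM counts reach 737 in SCADD and 77 in WT. For C730034F03Rik, which overlaps the edge of the read-through transcript on the opposite strand, the methods give like counts.

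Chkb, the choline kinase gene just upstream of Cpt1b, also rose in SCADD livers. RSEM gave it 66.1, 50.5 and 55.0 TPM in SCADD and 27.7, 21.1 and 26.4 TPM in WT. Its groups did not overlap, and the log2 fold change was 1.10 (SE 0.16, edgeR adjusted p = 0.00335). STAR left it 24, 30 and 39 reads in SCADD and 13, 19 and 22 in WT, with an adjusted p of 0.108. C730034F03Rik, chosen after its values were seen, starts inside Chkb on the opposite strand. It had 83, 69 and 73 STAR counts in SCADD and 28, 11 and 20 in WT. It rose by 2.28 on the log2 scale from STAR counts (SE 0.29; edgeR, adjusted p = 0.0016) and 2.27 from RSEM counts. Opposite-strand reads made up as much as 69.4% of its stranded reads in a library. Of 14 genes tested with RSEM counts within 250 kb of Cpt1b, Chkb and C730034F03Rik were the 2 that rose, and 0 fell (0 also at an unadjusted p under 0.05 and by DESeq2), and the median log2 fold change was 0.09. At an unadjusted p under 0.05, 3 of these 14 were higher, and DESeq2 called 2 higher. Around Slc22a5 0 of 5 such neighbours were called, with 1 of them at an unadjusted p under 0.05 and 0 called by DESeq2. Their median log2 fold change was 0.53. Slc22a4, P4ha2 and Gm12217 had 0.89, 0.68 and 0.53, and Rad50 and Irf1 had -0.37 and -0.53. The part of the surrounding region in the rise of Slc22a5 was not tested. Around Slc25a20 1 of 16 rose, Prkar2a (log2 fold change 0.66, adjusted p = 0.0165), named after its value was seen, and 0 fell. At an unadjusted p under 0.05, 3 of these 16 were higher and 2 lower, and DESeq2 called 2 higher and 1 lower. The median log2 fold change of the 16 was -0.08.

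Cpt1b made up 14.1%, 8.76% and 15.3% of the summed TPM of Cpt1a and Cpt1b in SCADD replicates 1, 2 and 3, and 1.5%, 1.77% and 2.7% in WT replicates 1, 2 and 3. Cpt1a remained the main form in each library. The sum of both forms was 77.8 ± 18.6 TPM in SCADD and 60.3 ± 15.9 TPM in WT (SD, n = 3 each), a difference within the spread. The 6 striated muscle markers Acta1, Ckm, Myh4, Myh6, Tnnt3 and Mb had at most 1 count in a SCADD library and 2 in a WT library, with summed levels of 0 to 0.0944 CPM in SCADD and 0 to 0.109 CPM in WT. Of the 5 fat markers, Ucp1, which marks brown fat, had 0 counts in each library. Cidea, a lipid droplet gene of brown fat, had 2, 1 and 4 counts in SCADD and 0, 0 and 2 counts in WT. Plin1, which coats lipid droplets, had 3, 1 and 3 counts in SCADD and 13, 0 and 0 counts in WT, and the leptin gene Lep had 0 in SCADD and 7, 0 and 0 in WT. With Adipoq, given above, the fat markers summed to 0.566 to 0.816 CPM in SCADD and 0.306 to 5.39 CPM in WT, and their part in the level of Cpt1b was not tested.

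RSEM also reports a transcript length weighted by the abundance of each isoform. For Cpt2 it was 2264, 2227 and 2138 bases in SCADD and 2323, 2347 and 2344 bases in WT, so the groups did not overlap. For Cpt1a it was 4268, 4257 and 4305 bases in SCADD and 4225, 4153 and 4215 bases in WT, also without overlap. The other 8 genes overlapped on length, 2 of them with the same length in each library. Lengths did not overlap between groups, in either direction, for 9.57% of the genes tested with RSEM counts. The lengths are given as a description, with no test. Opposite-strand reads were at most 0.497% of the stranded reads of any tested carnitine gene.

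Genes listed as relatives of the carnitine genes, with the serine hydroxymethyltransferase genes Shmt1 and Shmt2 among them, did not pass the test. Of 8 listed, 5 were tested and 0 were called in either direction, with a median log2 fold change of 0.20. Crot, the peroxisomal carnitine octanoyltransferase, was more abundant than any of the 10 genes, at 1048, 809 and 931 TPM in SCADD and 1280, 1084 and 767 TPM in WT. Its groups overlapped (log2 fold change -0.07, SE 0.23, edgeR adjusted p = 0.909). Slc22a4, a relative of Slc22a5 that carries ergothioneine, measured 1.84, 3.02 and 1.67 CPM in SCADD and 1.19, 1.01 and 1.09 CPM in WT, without overlap. It lies within 250 kb of Slc22a5 and is the neighbour given above at an unadjusted p under 0.05. It missed the threshold, at 0.99 on the log2 scale (SE 0.29; edgeR, adjusted p = 0.067) and an unadjusted p of 0.00598, the 1 value of the 5 under 0.05; DESeq2 also called 0 of the list. Shmt2, a serine hydroxymethyltransferase, differed by 0.26 on the log2 scale (SE 0.20; edgeR, adjusted p = 0.492). Slc22a21 and Cpt1c were too low to test, and Slc22a16 had 0 counts in each library.

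Among 10 tested genes that supply acyl-CoA or set malonyl-CoA, 1 rose and 1 fell, with a median log2 fold change of 0.33. Acacb, the acetyl-CoA carboxylase whose malonyl-CoA restrains the outer-membrane palmitoyltransferase, measured 19.9, 11.4 and 17.7 CPM in SCADD and 10.3, 6.47 and 8.71 CPM in WT. On the log2 scale the difference was 0.94 (SE 0.23; edgeR, adjusted p = 0.0352). Acsl4, an acyl-CoA synthetase that prefers arachidonate, measured 27.4, 18.6 and 27.0 CPM in SCADD and 56.4, 54.3 and 40.7 CPM in WT. It fell by 1.05 on the log2 scale (SE 0.18, edgeR adjusted p = 0.00744). The call of Acacb ended when SCADD 1, SCADD 3, WT 2 or WT 3 was left out (adjusted p = 0.0805 to 0.141) and with RSEM counts (0.0658), and that of Acsl4 held without any 1 library. The number of genes of this list called higher was 3 with DESeq2, 4 with no filter, 2 without SCADD replicate 2 and 3 without SCADD replicate 3. It moved in 10 alternative settings, and its values in those not listed here are not given.

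Downstream in the mitochondrial beta-oxidation list, 1 of 15 tested genes rose and 1 fell, with a median log2 fold change of 0.11. Acadm, the medium-chain acyl-CoA dehydrogenase, averaged 828 ± 106 CPM in SCADD and 510 ± 45.8 CPM in WT (SD, n = 3 each; edgeR adjusted p = 0.0304), and lost its call without SCADD replicate 1 or any WT replicate (0.0941 to 0.146). DESeq2, and edgeR without SCADD replicate 3, called 2 genes of the list higher. Acads, the gene of the deficient enzyme, averaged 100.2 ± 3.78 CPM in SCADD and 182 ± 15.2 CPM in WT (edgeR adjusted p = 0.00407). Among 9 nuclear regulators 0 rose (3 at an unadjusted p under 0.05, 0 by DESeq2) and 1 fell, with a median log2 fold change of 0.22. That gene was the coactivator Ppargc1a, at 4.65, 6.18 and 3.60 CPM in SCADD and 11.4, 24.7 and 15.3 CPM in WT (-1.82 on the log2 scale, SE 0.30; edgeR, adjusted p = 0.00744). Its adjusted p was 0.0516 without SCADD replicate 3, where 3 regulators were called higher and 0 lower. Without WT replicate 1, 2 were called lower.

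**Figure D4:**
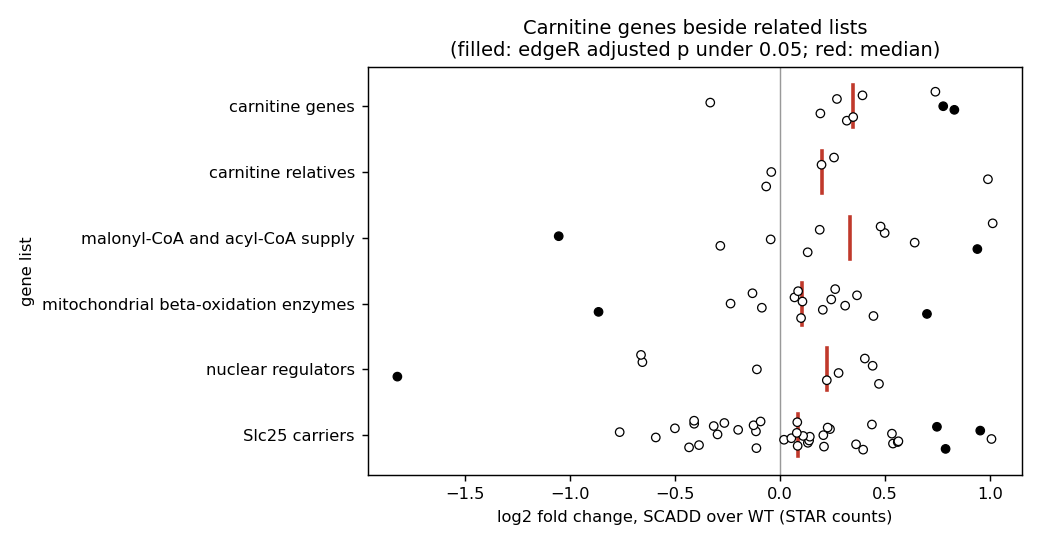
Log2 fold change, SCADD over WT, from STAR counts for the 9 tested carnitine genes (top) and the tested genes of 5 related lists, 1 point per gene with a red line at the median. Filled points have an edgeR adjusted p under 0.05. The median was 0.35 for the carnitine genes and 0.08 to 0.33 for the other lists.

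Slc25a20 belongs to a large family of mitochondrial carriers, and of 39 other members tested 3 rose and 0 fell (4 at an unadjusted p under 0.05, 0 by DESeq2), with a median log2 fold change of 0.08. Slc25a37, the iron importer mitoferrin, measured 11.1, 17.2 and 11.3 CPM in SCADD and 6.73, 6.08 and 7.62 CPM in WT (log2 fold change 0.95, SE 0.20, edgeR adjusted p = 0.0161). Alas2, an erythroid marker, was also higher in SCADD (log2 fold change 1.13, adjusted p = 0.00358), and its part in the level of Slc25a37 was not tested. Slc25a42, a carrier of coenzyme A, averaged 78.1 ± 2.63 CPM in SCADD and 46.5 ± 12.1 CPM in WT (SD, n = 3 each; edgeR adjusted p = 0.0292). Slc25a10, the dicarboxylate carrier, averaged 106 ± 30.3 CPM in SCADD and 61.5 ± 6.04 CPM in WT (edgeR adjusted p = 0.035). Slc25a10 lost its call in 5 of the 6 fits with a library left out, all but that without SCADD replicate 3 (adjusted p = 0.0558 to 0.161). Slc25a42 lost it without SCADD replicate 1, WT replicate 2 or WT replicate 3 (adjusted p of 0.081 or more), and Slc25a37 without WT replicate 1 or WT replicate 2 (0.0526 to 0.0905). The number of risen carriers was 1, 4 and 7 without SCADD replicate 1, 2 and 3, and 4, 0 and 1 without WT replicate 1, 2 and 3. DESeq2 called 8.

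The genes most like the 2 transporters across the 6 libraries were found by Pearson correlation of log2(CPM + 1) over 11696 genes averaging 1 CPM or more. For Slc22a5 they were Lrp6, Rbm15 and Cald1, each with r = 0.998. For Slc25a20 they were Mtor with r = 0.997, Dock8 with r = 0.996 and Simc1 with r = 0.995. All points share the split into 2 groups and the same 6 libraries, so these values describe likeness of profile only.

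**Figure D5:**
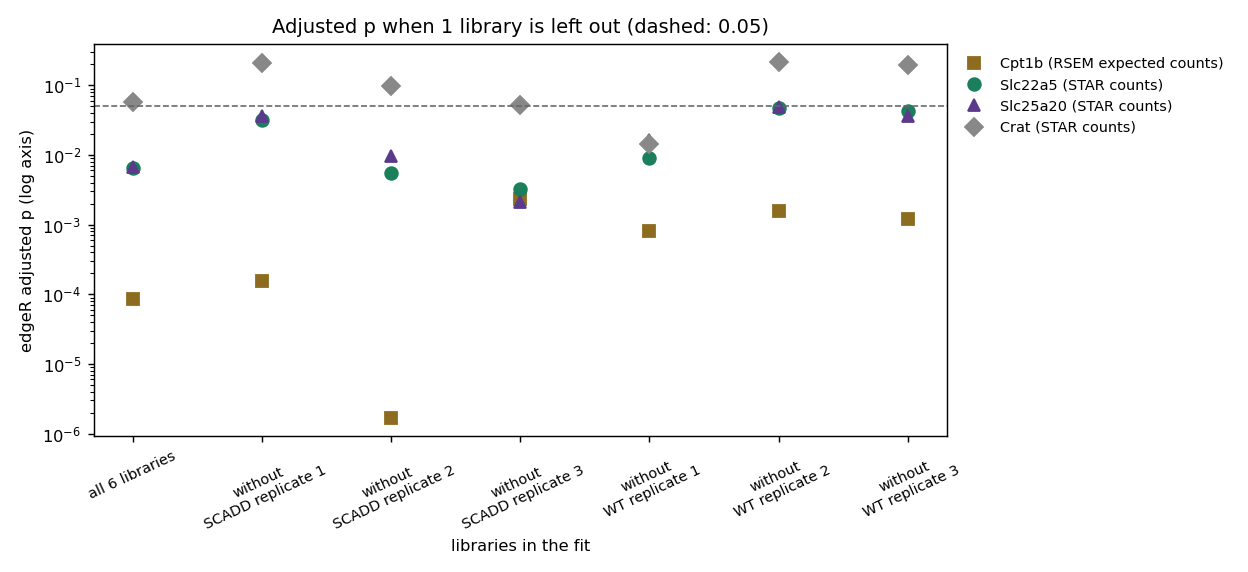
Adjusted p (log axis) of Cpt1b from RSEM counts and of Slc22a5, Slc25a20 and Crat from STAR counts, with all 6 libraries and with each library left out in turn. The dashed line is 0.05. Cpt1b, Slc22a5 and Slc25a20 stay under it in all fits shown, and Crat falls under it without WT replicate 1, at 0.0145.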

How the data were processed

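Per the submitters' processing notes, the tools were STAR 2.7.6a and RSEM 1.3.3 and the genome build was GRCm38. The release of the annotation is not given in the sources used here. The authors deposited whole-number STAR counts per gene, not normalised, and RSEM tables of expected counts, TPM scaled by transcript length and library, and FPKM, which was not used here. STAR column 4, which held 96.8% to 97.3% of stranded reads, was used, and the 4 summary rows were left out. Of 55487 gene IDs 55227 matched GENCODE M21 (GRCm38).

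Genes were kept by filterByExpr (minimum count 10). The main test was the robust quasi-likelihood fit of edgeR 4.0.16 (R 4.3.3) on TMM-scaled counts, with group as its term. RSEM expected counts were rounded and fitted alike. Benjamini-Hochberg adjustment ran over all tested genes of a fit, and the threshold was 0.05. SE is the log2 fold change over the square root of F, an approximation. Fits were tested on simulated data. Alternatives used DESeq2 1.42.0 and limma 3.58.1.

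The animals of a group are biological replicates per the series' design text, and replicate pairs differed beyond sampling noise (chi-square over degrees of freedom 32.8 to 121). Genes named outside the 10 were the neighbour Chkb, up to 4 called genes per list with the smallest p, or 2 where none was called, and the 3 most like profiles; others are marked as chosen later or stand for context. The members and lists were chosen with earlier results of these data known.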

Additional observations from a re-analysis of the deposited data

How the results depend on the processing

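Slc22a5 and Slc25a20 kept their direction under every alternative run and their call under RLE and upper-quartile scaling, no filter, a 1 CPM minimum in 3 libraries, DESeq2, limma-voom, edgeR without robust estimation, the unstranded column, RSEM counts and counts without Mup genes. They lost it against a 1.5-fold change (log2 fold changes 0.83 and 0.78 unchanged), with log2(TPM + 1), filtered or not (0.76 and 0.65), and with log2(TPM + 0.1) (0.78 and 0.67). The cause was not tested. With libraries left out, their log2 fold changes ran from 0.76 to 0.93 and from 0.70 to 0.83. Crat gained a call with no filter (0.74), DESeq2 (0.74) and without WT replicate 1 (0.99), in a range of 0.58 to 0.99 over left-out libraries. Cpt1b with STAR counts and no filter had 2.51. The number of carnitine genes called higher was 2 with STAR counts, 0 against a 1.5-fold change, and 2 or 3 with libraries left out. With RSEM counts, an alternative extended after seeing the data, it was 3, 1 against a 1.5-fold change, and 1 to 4 with libraries left out. Over all genes, 569 higher and 378 lower became 950 and 752 with no filter, 143 and 81 against a 1.5-fold change, and 240 to 909 and 155 to 681 with libraries left out.

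Replicate numbers were not taken as pairs. Deviations of same-numbered libraries correlated at 0.06, 0.04 and 0.11. Without the values of differently numbered libraries beside them, these cannot decide whether the numbers mark pairs. With the replicate number as a block, 668 genes were higher and 480 lower, and Crat was called with a log2 fold change of 0.76 (adjusted p = 0.00683). Slc25a29 rests on 11 to 34 counts in a library.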
